A study of Homo sapiens with 8 samples.

Results

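The genes of the core hypoxia response were examined by how close they lay to nuclear speckles in the kidney cancer line 786-O, of the human clear cell type, after a HIF-2α inhibitor was given. The 10 genes were EPAS1, HIF1A and HIF3A, which encode the HIF-α subunits, ARNT and ARNT2, which encode their partners, VHL, the prolyl hydroxylase genes EGLN1, EGLN2 and EGLN3, and HIF1AN. Each was placed by its transcription start site on hg19, and the windows that hold that site were read from tables covering the whole genome. This gave 90 windows of 100 kb and 90 of 50 kb for the 10 genes, of 278316 and 556938 windows in all. Cells grown in RPMI with serum under atmospheric oxygen received DMSO or 2 µM PT2399 for 3 h, and each treatment has 2 SON pulldowns and 2 inputs. Titles set the groups, and for 4 of the 8 libraries they conflict with the fields for antibody or treatment. Directions rest on columns named control and treatment, taken as DMSO and PT2399.

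HIF is a transcription factor made of an oxygen-controlled α subunit and a stable β subunit, ARNT or ARNT2. When oxygen is present, the EGLN enzymes hydroxylate prolines of the α subunit, and VHL, the substrate receptor of a ubiquitin ligase, then marks it for destruction. HIF1AN, also called FIH, hydroxylates an asparagine and so blocks binding of coactivators. 786-O cells lack functional VHL and keep HIF-2α, the product of EPAS1, at a high level, without functional HIF-1α. PT2399 binds HIF-2α and prevents it from joining ARNT. Nuclear speckles are bodies rich in splicing factors, built around proteins such as SON, and SON TSA-seq labels the DNA around it with biotin, so that a higher signal stands for chromatin nearer to speckles.

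Promoter sequences are shown for the gene whose windows changed, ARNT, for the gene next to it in strength of evidence, HIF3A, and for EPAS1, which encodes the protein that the drug binds. They come from RefSeq on GRCh38.p14, which is another build than that of the windows, and 8 of the 10 genes matched, all but VHL and ARNT2. Each run is the 250 bases before the start site, 5′ to 3′ on the gene's strand, and capitals mark the core of a hypoxia response element, ACGTG or GCGTG, on either strand.
ARNT, chr1:150876600-150876849, minus strand: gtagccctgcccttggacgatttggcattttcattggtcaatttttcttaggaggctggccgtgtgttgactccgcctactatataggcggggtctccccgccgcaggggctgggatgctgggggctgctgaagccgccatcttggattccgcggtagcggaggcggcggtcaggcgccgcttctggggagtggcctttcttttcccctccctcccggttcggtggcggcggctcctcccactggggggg
HIF3A, chr19:46296792-46297041, plus strand: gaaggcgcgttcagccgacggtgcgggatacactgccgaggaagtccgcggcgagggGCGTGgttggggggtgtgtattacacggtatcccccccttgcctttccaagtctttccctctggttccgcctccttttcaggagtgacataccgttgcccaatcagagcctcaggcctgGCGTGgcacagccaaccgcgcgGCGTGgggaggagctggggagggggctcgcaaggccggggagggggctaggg
EPAS1, chr2:46297157-46297406, plus strand: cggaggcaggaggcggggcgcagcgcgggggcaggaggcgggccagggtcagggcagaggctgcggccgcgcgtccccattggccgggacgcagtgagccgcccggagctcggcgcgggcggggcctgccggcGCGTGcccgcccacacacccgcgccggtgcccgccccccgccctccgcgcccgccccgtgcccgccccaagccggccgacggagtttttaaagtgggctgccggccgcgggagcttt
The ARNT sequence holds 0 matches, this HIF3A promoter, 1 of 3 listed for the gene, holds 3, and EPAS1 holds 1. Of all 35116 promoters in the table, 43.2% hold at least 1 match in the same length. Among the 12 listed promoters of the 8 genes, 5 did, which belonged to EPAS1, HIF1A, HIF3A, EGLN1 and EGLN2. The EGLN2 match lies in the palindrome CACGTG, an E-box, which counts on both strands and occurs in 6.34% of all promoters. A match describes the letters only, and windows of 50 or 100 kb do not resolve a promoter.

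The values are log2 concentrations, the name DiffBind gives to the log2 mean of scaled read counts, with 1 value per treatment and window. Values per library were not analysed here, so no spread between replicates and no depth can be given, and whether the 2 replicates came from separate cultures is not stated. The measure of error is the false discovery rate (FDR) of the authors' deposited tables, with a call at an FDR of at most 0.01. A start site lies in 9 overlapping windows of each size. These share reads and are not replicates, so ranges over them describe position only. Whether the ranges under DMSO and PT2399 overlap is therefore no test of a difference. Measured windows are those with a log2 concentration of 2 or more under DMSO and under PT2399, or 32.4% of all 100 kb windows. In 61.7% both treatments stood at the lowest values of the tables, -0.07 for DMSO and -0.11 for PT2399, here called the floor.

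The 10 start sites ranged from windows at the floor to windows at percentile 97.0 of all 100 kb windows by mean SON level, the latter at EGLN2. EGLN2, ARNT and HIF3A had the highest levels, with mean DMSO log2 concentrations of 10.58, 10.42 and 10.42 over their 9 windows of 100 kb, and their windows ranged from 10.26 to 10.75, from 10.37 to 10.54 and from 10.36 to 10.45. These ranges overlap, and an order among the 3 was not tested. HIF1AN, at 9.72, and VHL, at 9.67, came next, and their ranges overlap too. EPAS1 followed at 8.83 and EGLN3 at 7.10, each with all its DMSO values below those of the genes named before it. The windows of ARNT lay between percentiles 93.8 and 95.1 of all windows by mean level, and those of EPAS1 between 84.0 and 86.4. EGLN1, HIF1A and ARNT2 had windows at the floor in at least 1 treatment. Of their 9 windows, 7 were measured for EGLN1, 3 for HIF1A and 4 for ARNT2, and the other 7 genes were measured in all 9. With 50 kb windows the measured counts were 7, 3 and 2, and again 9 of 9 for the rest.

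**Figure D1:**
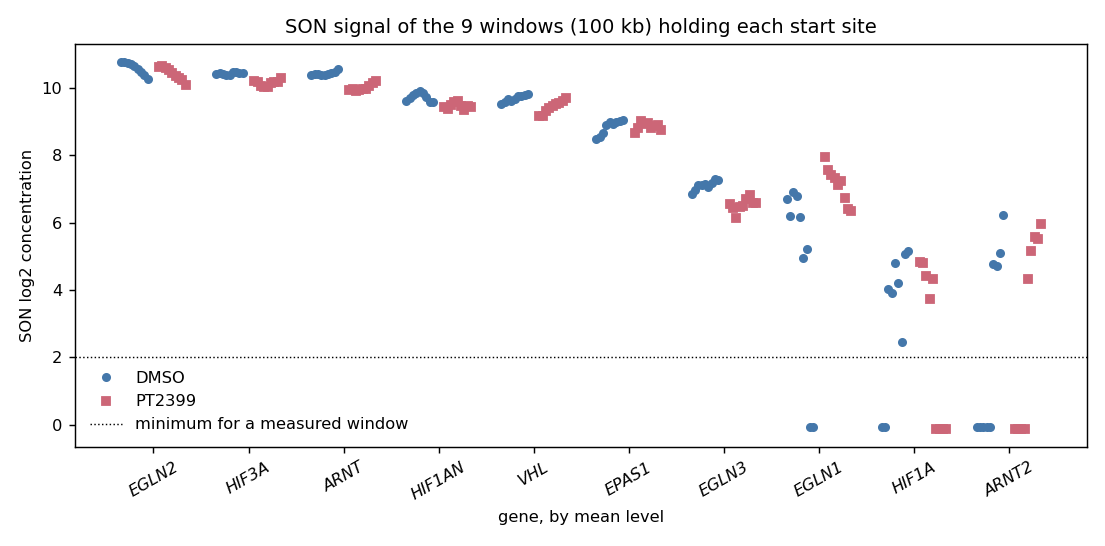
SON log2 concentration (y axis) of the 9 windows of 100 kb that hold each start site, in order of position from left to right, with DMSO as blue circles and PT2399 as red squares. The dotted line is the minimum for a measured window. ARNT ranges from 10.37 to 10.54 with DMSO and from 9.91 to 10.21 with PT2399, while HIF1A and ARNT2 have windows at the floor.

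With PT2399, the start site of ARNT was the only 1 of the 10 with a called change, and it was lower. In the authors' deposited tables, 7 of its 9 windows of 100 kb passed an FDR of 0.01, against 0.614% of all 100 kb windows called lower and 1.55% of measured ones. No member window was called higher, where the background is 0.139% of all windows. At an unadjusted p below 0.05 in the authors' DiffBind results, 6 genes had a lower window and 1, EGLN1, a higher one, where 6.1% and 1.77% of all 100 kb windows pass. A gene counts if any of its 9 windows passes, whereas the shares are over single windows, most of them at the floor. Counts of genes and shares of windows are therefore not on 1 scale, here or at the looser FDRs below. The mean change over windows, PT2399 minus DMSO, was below 0 for 7 of the 10 genes, with a median over the 10 of -0.26. That median counts windows at the floor, and over the 7 fully measured genes it was -0.27, with 6 of the 7 below 0. All measured 100 kb windows had a median change of -0.13, with 67.5% below 0, so a change below 0 by itself does not set these genes apart. With 50 kb windows, ARNT was again the only gene called, with 1 of 9 windows against 0.176% of all windows called lower, and no member window was called higher against 0.0503%. Of measured 50 kb windows, 0.357% were called lower. With a looser FDR of 0.05, HIF3A joined ARNT among lower genes at both window sizes, where 1.64% of all 100 kb windows and 0.572% of all 50 kb windows are called lower and 0.372% of 100 kb windows higher. Of measured windows, 4.29% at 100 kb and 1.25% at 50 kb are called lower at 0.05. At 0.1 the lower genes were ARNT, HIF3A, EGLN2 and HIF1AN at 100 kb (2.75% of all windows) and ARNT, HIF1A and HIF3A at 50 kb (1.09%), and EGLN1 was higher at 100 kb (0.635%). Of measured windows, 7.18% at 100 kb and 2.44% at 50 kb are called lower at 0.1.

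**Figure D2:**
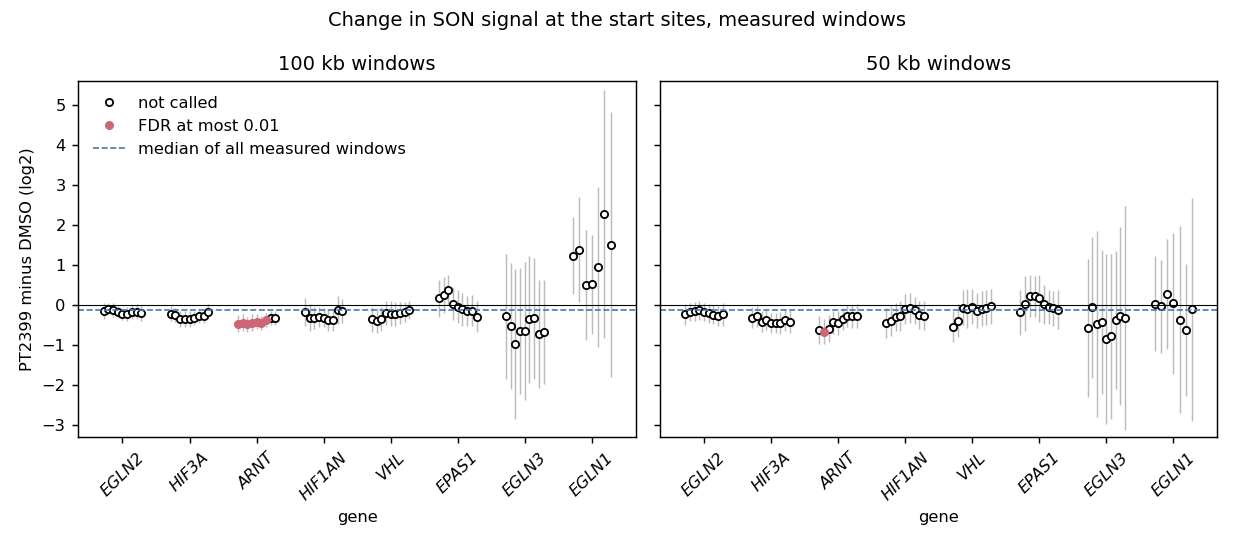
Change in SON signal (y axis, PT2399 minus DMSO, log2) in the measured windows of each start site, 100 kb windows on the left and 50 kb windows on the right. HIF1A and ARNT2, with few measured windows, are left out. Filled points have an FDR of at most 0.01, grey bars are approximate 95% intervals implied by the deposited p-values, and the dashed line is the median of all measured windows, -0.13 and -0.12. ARNT holds every filled point, and EGLN3 and EGLN1 have wide intervals.

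ARNT encodes HIF-1β, the partner that HIF-2α needs and that PT2399 keeps away. Its 9 windows of 100 kb had changes of -0.46, -0.44, -0.48, -0.44, -0.41, -0.45, -0.37, -0.32 and -0.33 in order of position on chromosome 1. Every window was lower with PT2399, and the lowest DMSO value, 10.37, stood above the highest PT2399 value, 10.21. The windows share reads, so this gap is no test of a difference. The mean of -0.41 leaves 75.2% of the DMSO level. The window at chromosome 1, 150810001 to 150910000, went from 10.40 to 9.95 and had the lowest FDR of the 9, 0.000265 in the authors' deposited table (p = 1.45e-06 from the authors' DiffBind test). An approximate standard error, taken from the deposited fold and p-value, was 0.09 there and gives a 95% interval of -0.63 to -0.27. The windows that missed the call were those reaching furthest beyond the start site, at 150830001 and 150840001, with FDRs of 0.0167 and 0.0193 in the authors' deposited table.

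The lower signal around ARNT had a local extent. Called windows merged into 1 region at 150730001 to 150920000, 190 kb long, with 9 called windows in 9 window sets, and these were the only called windows within 500 kb of the start site. The lowest change in that span, -0.49, came at 150740001 to 150840000, whose centre lies 59 kb from the start site on the side of the gene body, since ARNT is on the minus strand. Windows more than 100 kb away had a median change of -0.21, with quartiles of -0.26 and -0.17, so the surroundings were also lower than the median of all measured windows. On chromosome 1 as a whole the median was -0.18. The highest SON level in the span, 10.91 with DMSO, was 131 kb beyond the start site and changed by -0.15 (authors' deposited table, FDR 0.217). At 50 kb, changes ran from -0.66 to -0.26, and the called window at 150805001 to 150855000 went from 9.47 to 8.81 (authors' deposited table, FDR 0.00727). Of the 5 nearest protein-coding genes on each side in RefSeq order, the authors' deposited 100 kb list of genes at lower windows held CTSK and CTSS, which encode cathepsins, and SETDB1, a histone methyltransferase. ARNT itself was in both deposited gene lists. These lists name genes at lower windows, so an entry near a called region is not evidence apart from the called windows. The 100 kb list held 4.29% of all protein-coding genes.

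ARNT2, the second β subunit gene, is best known from neural tissue and could not be compared between treatments at its start site. Both treatments were at the floor in 4 of its 9 windows of 100 kb, and DMSO alone in 1 more. The 4 measured windows went from 4.78 to 5.17, from 4.70 to 5.57, from 5.09 to 5.52 and from 6.22 to 5.96, with no FDR below 0.874 in the authors' deposited table. Approximate intervals of these changes reached from -4.11 to 4.89, wide enough to hold changes far larger than that of ARNT in either direction. A region at chromosome 15, 80240001 to 80360000, was called higher 337 kb away, where the best window went from 2.20 to 7.52 (authors' deposited table, FDR 0.000515).

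EPAS1, the gene of HIF-2α, had no called change, and its windows lay on both sides of 0. Its 9 windows had changes of 0.17, 0.26, 0.37, 0.03, -0.04, -0.10, -0.14, -0.14 and -0.29 from left to right on chromosome 2. They passed from higher to lower with PT2399 along the locus, 4 above 0 and 5 below, and averaged 0.01. The window centred closest to the start site, at 46470001 to 46570000, went from 8.99 to 8.95 (authors' deposited table, FDR 0.921), with an approximate 95% interval of -0.45 to 0.37. That interval holds the change seen at ARNT, so the 2 genes are not shown to differ by it. The same window had the highest mean SON level within 500 kb. Between that locus and the edges of the span the change crossed 0 several times. A window that ends 165 kb to the left, at 46260001 to 46360000, was called higher, from 7.07 to 8.63 (authors' deposited table, FDR 0.00437). On the right, the window at 46840001 to 46940000 went from 7.82 to 5.84 and missed the call (authors' deposited table, FDR 0.029). At 50 kb the mean over windows was 0.03, and the lowest FDR was 0.731 in the authors' deposited table.

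HIF3A, whose product includes forms that restrain the other HIF-α proteins, came nearest to a call after ARNT. Its DMSO values ran from 10.36 to 10.45 and its PT2399 values from 10.01 to 10.27, with no overlap. In windows that share reads, such a gap is no test. All 9 windows of 100 kb were lower, with changes from -0.35 to -0.16 and a mean of -0.28, or 82.4% of the DMSO level. The window centred on the start site, at chromosome 19, 46750001 to 46850000, had an FDR of 0.013 in the authors' deposited table, just above the threshold, and a change of -0.35 with an approximate 95% interval of -0.54 to -0.16. At 50 kb the changes ran from -0.45 to -0.28, and 1 window, with an FDR of 0.0474, passed 0.05 in the authors' deposited table. A change of -0.35 was the lowest within 500 kb and was not particular to the start site, since a window centred 370 kb to the right had the same change, 10.87 to 10.52, and missed the call as well (authors' deposited table, FDR 0.0186). Windows more than 100 kb from HIF3A had a median change of -0.20. The median of all measured windows on chromosome 19 was -0.13. A separate window 280 kb to the right, at 47080001 to 47180000, was called lower, from 10.75 to 10.43 (authors' deposited table, FDR 0.0051).

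HIF1A, which encodes HIF-1α, lay at the edge of a stretch with almost no SON signal. On its right, all 40 windows of 100 kb centred more than 50 kb and up to 500 kb away were at the floor in both treatments. On its left a block of signal reached 7.59 with DMSO and 6.83 with PT2399 at chromosome 14, 61970001 to 62070000. At the start site, the 2 leftmost windows had DMSO at the floor and PT2399 at 4.82 and 4.80. The 3 measured windows went from 4.03 to 4.43, from 3.91 to 3.74 and from 4.81 to 4.33. In the 4 rightmost windows PT2399 was at the floor, while DMSO stood at 4.21, 2.45, 5.08 and 5.15. The lowest FDR of these 9 was 0.13 in the authors' deposited table. The direction thus turned within 100 kb at a level where intervals of the measured windows reached from -4.95 to 4.82, and no change could be stated for HIF1A. At 50 kb, PT2399 was at the floor in 6 of 9 windows and 3 were measured. The lowest FDR at that size, 0.0896 in the authors' deposited table, belonged to a window with DMSO at 5.55 and PT2399 at the floor, so HIF1A passed 0.1 there without a measured PT2399 level.

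The plot of the signal around the 4 genes of lowest level shows these edges. The profile of HIF1A falls to the floor close to the start site and stays there on the right, while that of ARNT2 has a gap on the left in both treatments. For EGLN1 only the DMSO profile has a gap close to the start site.

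**Figure D3:**
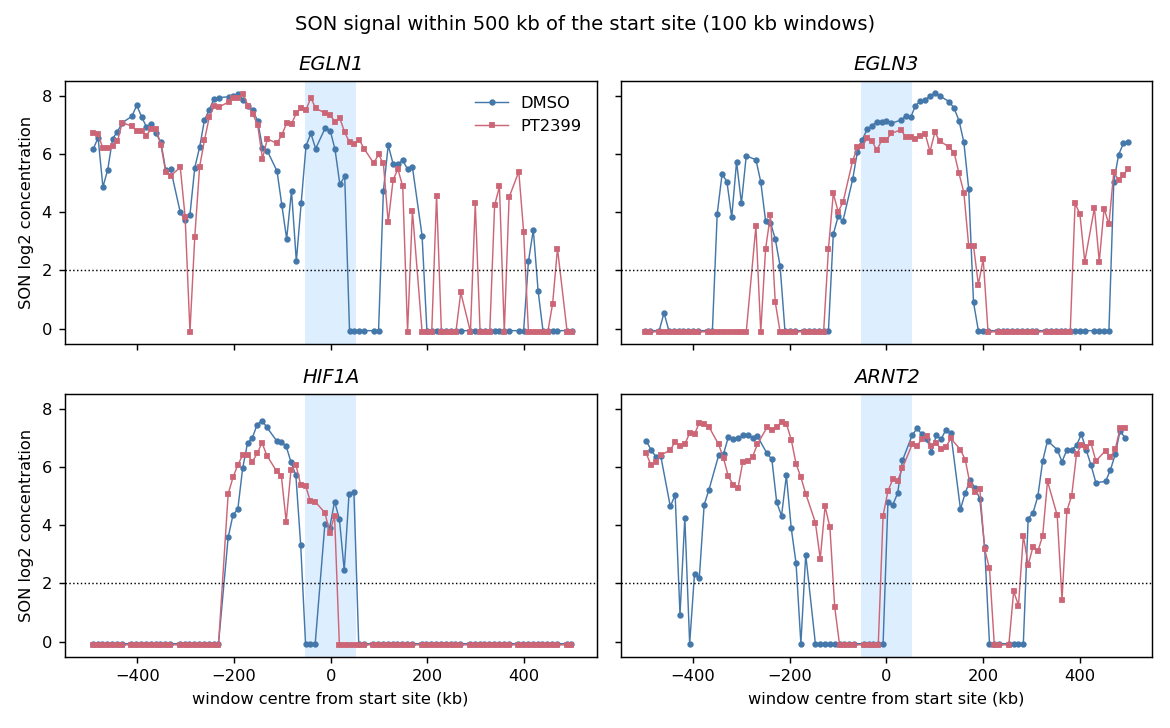
SON log2 concentration (y axis) of 100 kb windows by distance of their centre from the start site of EGLN1, EGLN3, HIF1A and ARNT2, with DMSO in blue and PT2399 in red. Shading marks windows that hold the start site, and the dotted line is the minimum for a measured window. HIF1A has 65 of 90 windows at the floor in both treatments and EGLN3 has 36 of 91.

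VHL, inactive in these cells, had a high SON signal and no called change. Its DMSO values ran from 9.51 to 9.81 and its PT2399 values from 9.16 to 9.69, so the ranges overlap. All 9 windows of 100 kb were lower, from -0.39 to -0.12, and the mean of -0.24 left 84.4% of the DMSO level. The lowest FDR was 0.147 in the authors' deposited table, for a window that went from 9.56 to 9.17. The window centred 3 kb from the start site changed by -0.20, with an approximate 95% interval of -0.50 to 0.10. At 50 kb the mean was -0.16. A 60 kb region at chromosome 3, 10000001 to 10060000, was called lower at 50 kb, 123 kb from the start site, and its best window went from 8.68 to 7.49 (authors' deposited table, FDR 0.00351). EMC3, the fourth protein-coding gene on that side of VHL in RefSeq order and a subunit gene of a membrane protein insertase, was in the authors' deposited 50 kb list, and VHL was in neither list. The 50 kb list held 1.11% of all protein-coding genes, and it too is a list of genes at lower windows.

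The 3 prolyl hydroxylase genes differed in level and in how well they could be measured. EGLN2 was among the 3 genes of highest SON signal and had narrow intervals. Its 9 windows changed by -0.22 to -0.10, with a mean of -0.17, or 89.0% of the DMSO level. The DMSO range, 10.26 to 10.75, and the PT2399 range, 10.07 to 10.65, overlap. The lowest FDR was 0.0893 in the authors' deposited table, for the window at chromosome 19, 41250001 to 41350000, which went from 10.64 to 10.42. Its change of -0.22 has an approximate 95% interval of -0.38 to -0.06. Windows more than 100 kb from EGLN2 had a median change of -0.11, and none within 500 kb was called at either window size. At 50 kb the mean was -0.20.

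EGLN1 encodes PHD2, the main oxygen sensor of most cells, and its start site was at the right end of a block of SON signal. All 9 windows of 100 kb were higher with PT2399. The 7 measured ones changed by 1.23, 1.38, 0.50, 0.52, 0.96, 2.27 and 1.51, and in the other 2 DMSO was at the floor while PT2399 stood at 6.39 and 6.35. The lowest FDR at the start site, 0.0673 in the authors' deposited table, belonged to a window with DMSO at the floor. A window that ends 21 kb to the left of the start site, at chromosome 1, 231440001 to 231540000, was called higher, from 2.31 to 7.40 (authors' deposited table, FDR 0.00341). The left is the side of the gene body, since EGLN1 is on the minus strand. At 50 kb a region at 231470001 to 231525000, which ends 36 kb to the left of the start site, was also called higher, and its best window had DMSO at the floor and PT2399 at 6.83 (authors' deposited table, FDR 0.00179). At the start site itself, the 7 measured 50 kb windows had a mean change of -0.11 with 4 lower and 3 higher, while 2 further windows rested on DMSO values of 1.88 and -0.07. The mean of the measured windows therefore changed sign with the window size, from 1.20 at 100 kb. Over the approximate intervals of single 100 kb windows, the lowest bound was -1.81 and the highest, from another window, 5.37. In 2 of the 7 the interval lay above 0, at 0.26 to 2.20 and 0.07 to 2.69, with FDRs of 0.119 and 0.218 in the authors' deposited table.

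EGLN3 encodes PHD3, and the gene is known as a HIF target in renal carcinoma cells. Its 9 windows of 100 kb were all lower, from -0.97 to -0.28, with DMSO values of 6.84 to 7.29 and PT2399 values of 6.13 to 6.83, which do not overlap. These windows share reads, so the gap between the ranges does not separate the treatments. The mean change of -0.57 was the most negative of the fully measured genes. It was also the least certain of them, since the approximate standard errors ran from 0.66 to 0.96, and the lowest FDR was 0.582 in the authors' deposited table. In the window centred on the start site, at chromosome 14, 34370001 to 34470000, the change of -0.65 has an approximate 95% interval of -2.37 to 1.07. At 50 kb the mean was -0.46. The highest signal of the block around EGLN3, 100 kb to the right, went from 8.09 to 6.74 (authors' deposited table, FDR 0.139). EGLN3 was in neither of the authors' deposited gene lists.

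HIF1AN had changes of -0.38 to -0.13 in its 9 windows of 100 kb, all lower, with a mean of -0.27, or 83.1% of the DMSO level. The window with the lowest FDR, at chromosome 10, 102250001 to 102350000, went from 9.83 to 9.45 (authors' deposited table, FDR 0.0559), with an approximate 95% interval of -0.63 to -0.13. DMSO values of 9.56 to 9.91 and PT2399 values of 9.35 to 9.60 overlap slightly. A region at 102380001 to 102500000, 84 kb to the right, was called lower, and its best window went from 9.78 to 9.26 (authors' deposited table, FDR 0.00882). It was called at 50 kb as well, at 102435001 to 102500000, where the best window went from 9.16 to 8.35 (authors' deposited table, FDR 0.0035). At 50 kb a further window, 319 kb to the right at 102615001 to 102665000, was called lower, from 9.14 to 8.39 (authors' deposited table, FDR 0.00989). The start site was in none of these called regions, and at 50 kb its mean change was -0.25.

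**Figure D4:**
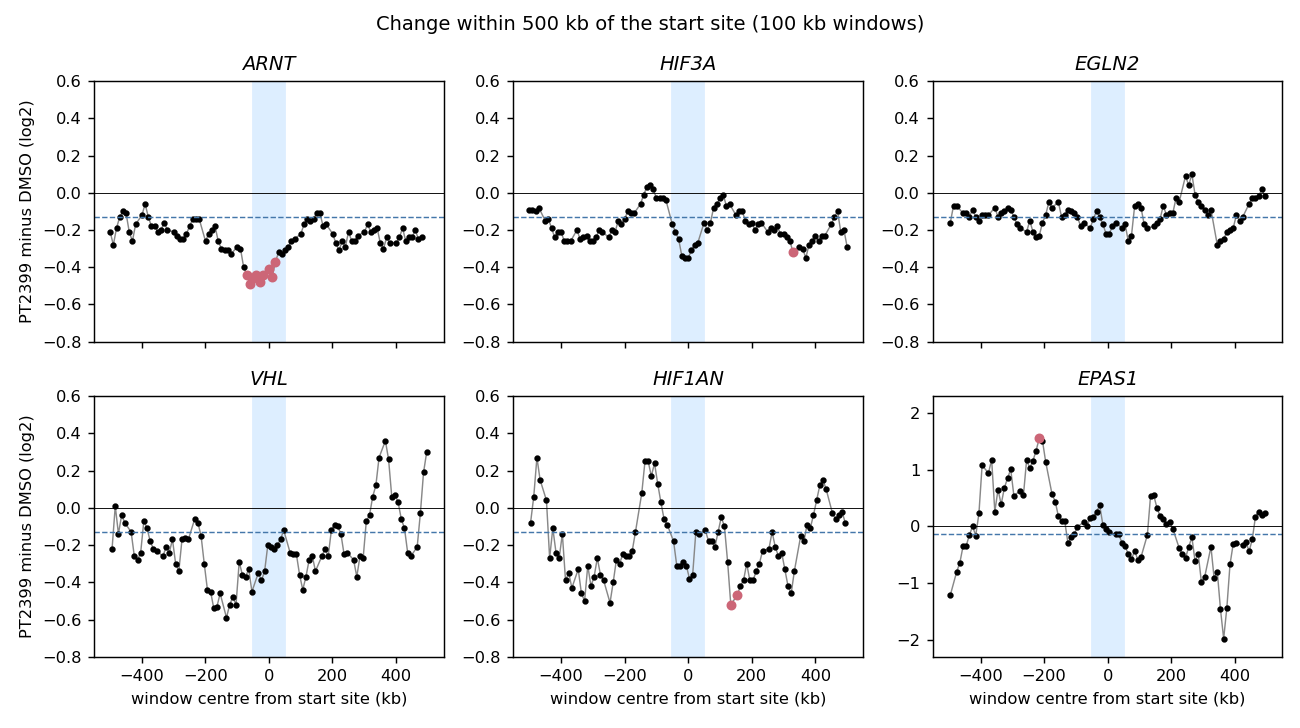
Change in SON signal (y axis, PT2399 minus DMSO, log2) of measured 100 kb windows by distance of their centre from the start site, for 6 genes measured throughout the span. Red points have an FDR of at most 0.01, shading marks windows that hold the start site, and the dashed line is the median of all measured windows; the axis of EPAS1 is wider. ARNT and HIF3A dip at the start site to -0.48 and -0.35, and the called windows near HIF1AN and EPAS1 lie outside the shading.

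Each window was set beside measured windows of the same set whose mean level lay within 0.25. For ARNT, with between 971 and 999 such windows, the matched median averaged -0.14 with quartiles of -0.23 and -0.06, and all 9 of its windows fell below the lower quartile. On average 3.07% of the matched windows had a lower change than ARNT. The corresponding shares were 15.9% for HIF3A, 24.5% for HIF1AN, 29.3% for VHL, 32.4% for EGLN3, 38.9% for EGLN2 and 63.5% for EPAS1. For the 7 measured windows of EGLN1 the share was 88.8%. These shares moved with the window size. At 50 kb the share was 10.2% for ARNT, with single windows up to 23.6%, and 7.97% for HIF3A, so their order turned. VHL had 46.9% at 50 kb and the measured windows of EGLN1 51.9%. Less the matched median, the mean changes were -0.27 for ARNT, -0.14 for HIF3A, -0.13 for HIF1AN, -0.11 for VHL, -0.03 for EGLN2 and 0.14 for EPAS1. EGLN3 had -0.43 by this measure but lay between the matched quartiles, -0.76 and 0.48, in 7 of 9 windows. Calls depended on the level, and among windows with a mean concentration of at least 10, where ARNT lies, 4.39% were called lower in the authors' deposited tables.

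**Figure D5:**
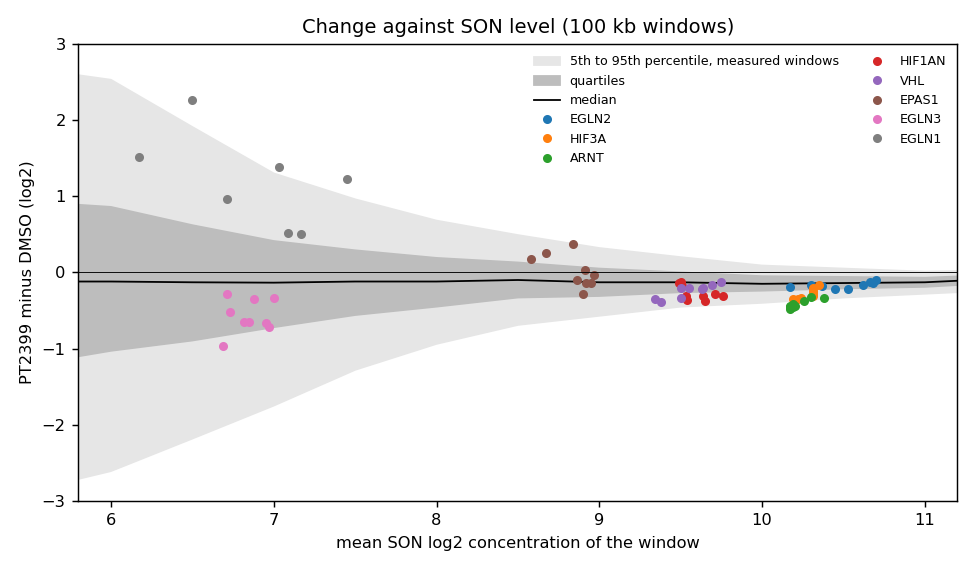
Change in SON signal (y axis, PT2399 minus DMSO, log2) against the mean SON log2 concentration of the window (x axis, 100 kb). Grey bands give the quartiles and the 5th to 95th percentiles of all measured windows and the black line their median; points are the measured windows of 8 genes. ARNT lies below the quartile band at a level near 10.2, EGLN2 mostly within it, and EGLN1 above it at levels where the bands are wide.

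Whether ARNT was called depended on the scaling. In an alternative, the median of the measured windows was subtracted from all changes of a set, which are then called recentred and were tested with the implied standard errors. In this test ARNT kept changes of -0.35 to -0.20 at 100 kb, and its lowest Benjamini-Hochberg adjusted p was 0.0521, above the threshold. At 50 kb the lowest adjusted p of this test was 0.119. The unadjusted p from the same normal test was below 0.05 in all 9 windows of 100 kb, which share reads, and in 5 of 9 windows of 50 kb. Without recentring, the same implied errors gave a lowest adjusted p of 0.000345 at 100 kb and of 0.0119 at 50 kb, the latter above the threshold. Under recentring 0.161% of measured windows were called lower and 0.109% higher, against 1.39% and 0.0676% without it. The source of the median shift of -0.13 was not tested.

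Other genes of the pathway were looked up by symbol in the authors' deposited lists of genes at lower windows. Of 44 HIF regulators, 0 were in either list. Of 18 other genes of proteins with PAS domains, which the HIF subunits share, AHRR was in the 100 kb list and 0 were in the 50 kb list. NCOA1, NCOA2 and NCOA3 were counted in both of these groups. Of 10 other 2-oxoglutarate dioxygenase genes, the enzyme class of the EGLN proteins, P4HA1, a collagen prolyl hydroxylase subunit, was in both lists. Among all 20056 protein-coding genes, 4.29% were in the 100 kb list and 1.11% in the 50 kb list.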

How the data were processed

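The submitters' processing notes list hg19 with the tools Bowtie2, Picard, bedtools and DiffBind; their versions and roles, the scaling and the use of inputs were not given in the sources used here. Each window has log2 concentrations, a log2 fold, a p-value and an FDR, per the file headers. The deposited fold equals DMSO minus PT2399 to within 0.01, and its sign was turned. Windows of 100 kb (step 10 kb) and 50 kb (step 5 kb) come in 9 sets each.

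Start sites were given to 0.001 Mb and assigned to half-open windows. The 10 genes and all lists were chosen with earlier results of these data known. Named genes were the 10 members and every list member or near neighbour found in a deposited gene list. Standard errors were implied by the absolute fold over the normal quantile of p; where the fold was under 0.1 or p reached 0.5, the median of 1 of 20 level bins was used. The recentred test was tried on simulated 100 kb windows of set 1. It recovered 50.0% of added changes of 0.5 and 93.0% of those of 1.0, with 1 false call each. Changes as small as the recentred ones of ARNT were not simulated. The noise was drawn separately for each window from the same implied errors, so shared reads were not modelled. The measured minimum, 2, follows an earlier analysis of these tables. Of 1023 and 258 listed genes, 986 and 252 matched RefSeq symbols (GRCh38). Software was Python 3.11.15 with scipy 1.17.1, pandas 2.3.3, numpy 2.4.6 and matplotlib 3.10.9.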

Additional observations from a re-analysis of the deposited data

How the results depend on the processing

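Genes with a called start site numbered 1 lower (ARNT) and 0 higher, where 0.614% of all 100 kb windows are called lower and 0.139% higher. At an FDR of 0.05 there were 2 lower, with HIF3A added, where 1.64% of all windows and 4.29% of measured ones are called lower. At 0.1 there were 4 lower, with EGLN2 and HIF1AN added, and 1 higher, EGLN1, whose passing windows had DMSO at the floor. At that FDR 2.75% of all windows and 7.18% of measured ones are called lower, and 0.635% of all windows higher. Windows of 50 kb gave 2 lower at 0.05 and 3 at 0.1, settings added after the data were seen. Of all 50 kb windows, 0.572% and 1.09% are called lower at these FDRs. HIF1A, among the 3, rested on a window with PT2399 at the floor. Recentring with implied errors, which removes the shift itself, left 0 lower. ARNT stayed the only call with Benjamini-Hochberg over all sets, with at least 5 of 9 windows and with 50 kb windows at 0.01. The same held at 100 kb with implied errors alone, with measured windows and with the 50% of windows highest in level. With implied errors alone at 50 kb, the lowest Benjamini-Hochberg adjusted p of the normal test for ARNT was 0.0119, above the threshold. Mean changes kept their sign under every alternative for ARNT (-0.48 to -0.27), HIF3A (-0.39 to -0.14), VHL (-0.39 to -0.11), EGLN2 (-0.22 to -0.03), EGLN3 (-0.97 to -0.28), HIF1AN (-0.38 to -0.13) and EGLN1 (0.50 to 6.46), though the measured 50 kb windows of EGLN1 alone averaged -0.11. EPAS1, HIF1A and ARNT2 changed sign under some, and the cause was not tested. No paired analysis was possible because the tables hold 1 value per treatment, and for the same reason no replicate could be left out. Low SON signal limits EGLN1, EGLN3, HIF1A and ARNT2.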
